A study of Mus musculus with 2 samples.

Results

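Integrins are paired receptors that tie a cell to its matrix. Expression of 10 subunit genes, Itga1, Itga2, Itga5, Itga6, Itga8, Itga9, Itgav, Itgb1, Itgb4 and Itgb6, was followed by cell type in single nuclei of mouse colon. The genes were taken by their exact symbols, 10 of the 32285 genes measured. Colon nuclei were profiled by 10x Genomics 3′ single-nuclei RNA-seq after chronic colitis, which had been induced by dextran sodium sulfate (DSS), a polymer that damages the mucosa. All mice, 8 to 12 weeks of age, went through 4 cycles, each of 3 d on 2% DSS in the drinking water and 4 d without it, and were analysed on day 28. One group was WT littermates. The other was Ncr1cre+ Hif-1αfl+/fl+ mice (HIF-1α KO), in which Cre is driven by the promoter of Ncr1, the gene of the receptor NKp46, so that deletion of the floxed Hif-1α allele is limited to NKp46+ lymphoid cells and the epithelium and muscle keep it. Each genotype was 1 library made from 3 pooled animals, so no test between genotypes can be made and none is given. Intervals are 95% intervals, exact except for ratios at equal cell type composition, where they are approximate. They cover counting error only and hold neither the spread between animals nor that between preparations.

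Each integrin is a heterodimer of 1 α and 1 β subunit, and the pairing decides the ligand. Pairs with the β1 chain bind collagens (with α1 or α2), fibronectin (with α5), laminins (with α6) or matrix proteins such as nephronectin and tenascin (with α8 or α9). The α6β4 pair anchors epithelium to laminin in hemidesmosomes, and the αv chain, with β6, binds the latent form of TGF-β and frees the active cytokine. In the colon, laminin receptors are best known from the crypt epithelium and collagen and fibronectin receptors from smooth muscle and fibroblasts.

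The files held 13492810 UMIs (unique molecular identifiers, 1 per captured transcript) in the WT library and 25489277 in the HIF-1α KO library. Nuclei with 400 to 5000 genes and at most 10% mitochondrial UMIs were kept, 4884 of 4896 and 4702 of 4772, with a median of 2058.5 UMIs per WT nucleus and 4197 per HIF-1α KO nucleus. The libraries shared 3 cell barcodes. Clusters were named from marker genes other than the 10 subunits and are written with the ending -like. Clusters 0, 1 and 21 passed for no cell type and stay unnamed. They held 11.7%, 15.5% and 0.491% of WT nuclei and 8.42%, 3.57% and 0.213% of HIF-1α KO nuclei. Hif1a itself, counted over all nuclei, was at 172 CPM (UMIs divided by all UMIs of the same nuclei, scaled to 1e+06) in WT and 199 CPM in HIF-1α KO. That value checks nothing, since Ncr1 had 1 UMI in WT and 0 in HIF-1α KO, so nuclei of the deleted cells could not be told apart by it. Transcripts of one cell type were also found in nuclei of the others, as RNA free in the suspension gives. Slc26a3, an absorptive enterocyte transporter, was at 1433 and 1798 CPM in absorptive enterocyte-like nuclei (WT and HIF-1α KO) but also at 150 and 223 CPM in smooth muscle-like and 239 and 260 CPM in immune-like nuclei. Myh11, the myosin of smooth muscle, was at 2233 and 4608 CPM in smooth muscle-like nuclei and at 21.4 to 59.3 CPM in the epithelial types.

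The 300 bases around the start of 4 genes are printed here to show a pair of subunits whose level differed in smooth muscle-like nuclei, Itga5 and Itga1, and the αv and β6 chains, whose highest levels were in absorptive enterocyte-like nuclei. Each runs 5′ to 3′ on the gene's own strand, from 250 bases before the RefSeq start to 50 after it, on GRCm38.p6. Capitals mark the GC box GGGCGG, searched on both strands. The windows are chr15:103366742-103367041 (minus strand) for Itga5, chr13:115101915-115102214 (minus) for Itga1, chr2:60722554-60722853 (minus) for Itgb6 and chr2:83724147-83724446 (plus) for Itgav.
Itga5: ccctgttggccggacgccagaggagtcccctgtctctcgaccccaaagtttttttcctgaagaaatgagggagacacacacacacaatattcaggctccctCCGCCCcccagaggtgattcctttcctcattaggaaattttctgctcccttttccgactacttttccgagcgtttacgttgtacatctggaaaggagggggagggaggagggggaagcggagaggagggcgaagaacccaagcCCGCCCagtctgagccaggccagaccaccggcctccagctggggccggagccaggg
Itga1: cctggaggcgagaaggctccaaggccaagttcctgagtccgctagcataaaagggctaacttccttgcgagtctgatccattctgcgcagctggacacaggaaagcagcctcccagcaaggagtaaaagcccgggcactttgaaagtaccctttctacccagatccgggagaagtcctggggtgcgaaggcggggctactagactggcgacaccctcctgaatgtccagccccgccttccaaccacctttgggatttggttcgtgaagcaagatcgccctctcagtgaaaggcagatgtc
Itgb6: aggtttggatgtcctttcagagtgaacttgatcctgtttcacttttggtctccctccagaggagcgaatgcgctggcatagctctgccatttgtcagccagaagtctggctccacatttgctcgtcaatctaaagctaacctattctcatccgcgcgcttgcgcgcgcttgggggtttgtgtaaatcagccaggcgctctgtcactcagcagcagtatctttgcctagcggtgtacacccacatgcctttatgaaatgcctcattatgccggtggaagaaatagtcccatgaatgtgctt
Itgav: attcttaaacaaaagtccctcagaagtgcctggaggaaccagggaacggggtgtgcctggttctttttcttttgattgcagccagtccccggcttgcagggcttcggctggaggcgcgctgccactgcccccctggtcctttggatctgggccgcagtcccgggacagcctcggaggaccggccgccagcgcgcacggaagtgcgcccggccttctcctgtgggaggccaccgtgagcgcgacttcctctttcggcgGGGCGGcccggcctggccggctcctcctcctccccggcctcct
The G and C content was 58.7% for Itga5, 56.7% for Itga1, 50.3% for Itgb6 and 67.3% for Itgav, against a median of 52.7% over all 32851 promoter windows. Itga5 held 2 GC boxes, Itgav 1, and Itga1 and Itgb6 0, where 35.7% of all windows held at least 1. The core of the hypoxia response element, ACGTG on either strand, was in 19.6% of all windows and in none of these 4. Of the 9 start windows that matched 8 of the 10 subunits, it was in the one of Itga9 (chr9:118711442-118711741, plus strand), which is a start inside the gene, far downstream of the annotated gene start given below. A second start of Itgb6 (chr2:60673644-60673943, minus, 38.3% G and C) held a match to the CArG box, which 1.63% of all windows held. These are matches of letters only. Itga6 and Itgb4 had no entry.

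Over all nuclei, 1 subunit differed upward in HIF-1α KO by at least 1.5-fold, where 13.3% of all genes did, and 2 downward, where 16.5% of all genes did. Itgb6, the epithelial partner of αv, stood at 94.9 CPM in WT and 199 CPM in HIF-1α KO (log2 ratio of HIF-1α KO over WT 1.07, interval 0.98 to 1.16). Itga8 stood at 7.54 and 2.67 CPM (log2 ratio −1.50, interval −1.98 to −1.03) and Itga9 at 41.0 and 17.9 CPM (−1.20, interval −1.38 to −1.01). The other 7 lay within 1.5-fold. Itga1 was at 91.8 and 67.8 CPM, Itgb1 at 178 and 142 CPM and Itga5 at 41.9 and 38.2 CPM. Itgb4 was at 83.0 and 106 CPM, Itgav at 117 and 139, Itga2 at 140 and 155 and Itga6 at 415 and 450 CPM. Thus the 5 subunits that were lower in HIF-1α KO were those whose highest WT level among the larger cell types was in smooth muscle-like nuclei, and the 5 that were higher had it in an epithelial type. The median log2 ratio was −0.01 over the 10 subunits and −0.01 over all genes.

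The libraries also held different shares of the cell types. Smooth muscle-like nuclei gave 4.97% of the UMIs in WT and 1.99% in HIF-1α KO, and fibroblast-like nuclei 4.18% and 1.48%. Absorptive enterocyte-like nuclei gave 16.7% and 25.3%, goblet-like nuclei 13.2% and 20.4%, and cycling epithelial-like nuclei 12.8% and 8.49%. Whether these shares come from the tissue or from the preparation of the nuclei cannot be told apart with 1 library per genotype. Levels were therefore also weighted to one and the same composition, the mean of both libraries. At equal composition Itga1 turned from lower to higher, with a log2 ratio of 0.40 (interval 0.29 to 0.51), and Itga5 from near 0 to 0.70 (interval 0.54 to 0.85). Itgb6 remained the highest at 0.83, while Itga9 shrank to −0.23 and Itga8 to −0.82. Itgb4 was at 0.23, Itgav at 0.17, Itga2 at 0.14, Itga6 at 0.11 and Itgb1 at −0.12. With every nucleus thinned to 1000 UMIs, which changes depth and the weight of nuclei together and leaves out 63 HIF-1α KO nuclei, the log2 ratios were 0.028 for Itga1 and 0.38 for Itga5.

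**Figure D1:**
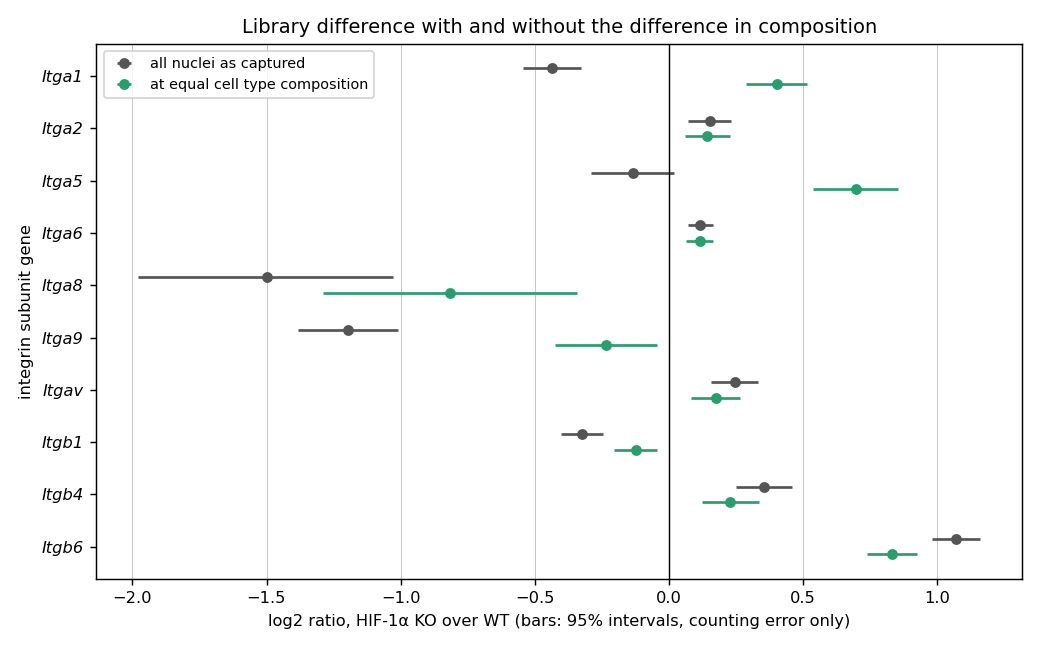
The x axis gives the log2 ratio of CPM, HIF-1α KO over WT, for each of the 10 subunits on the y axis, with grey points for all nuclei as captured, green points at equal cell type composition, and bars for 95% intervals of counting error. The grey and green points of Itga1 lie on opposite sides of 0 (−0.44 and 0.40), Itga5 moves from −0.14 to 0.70, and Itgb6 stays far to the right in both (1.07 and 0.83).

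Within cell types, the 10 subunits and the 9 types with at least 50 nuclei in each library gave 90 combinations. In 22 of them the libraries together held under 50 UMIs, and the other 68 were compared. Of these, 14 were higher in HIF-1α KO by at least 1.5-fold, 3 were lower and 51 lay within. The interval of the ratio excluded 0 on the log2 scale in 16 of these 17. In smooth muscle-like nuclei 2 of 9 subunits compared were higher and 1 lower, where 11.8% of all genes compared there were higher and 7.89% lower. In fibroblast-like nuclei 2 of 7 were higher (10.8% of all genes) and 0 lower (6.86%). In goblet-like nuclei 1 of 8 was higher (11.1%) and 1 lower (10.2%). Absorptive enterocyte-like nuclei had 1 of 8 higher (10.3%) and 1 lower (15%). Among mucus-producing enterocyte-like nuclei, 1 of 8 was higher (11.9%) and 0 lower (8.79%). Crypt base stem-like nuclei had 2 of 7 higher (17.1%) and 0 lower (7.22%). In cycling epithelial-like nuclei 1 of 8 was higher (13.1%) and 0 lower (7.19%), and in enteroendocrine-like nuclei 1 of 6 was higher (10.5%) and 0 lower (6.69%). In immune-like nuclei 3 of 7 were higher (18.7%) and 0 lower (5.46%). With so few subunits per type, 1 more or less moves these shares strongly, and nothing particular to the subunits is read from them. Itgb6 was the subunit called in most types, 5 of the 8 in which it was compared. These types come from the same libraries, and the share of all genes called in as many types is not given here.

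**Figure D2:**
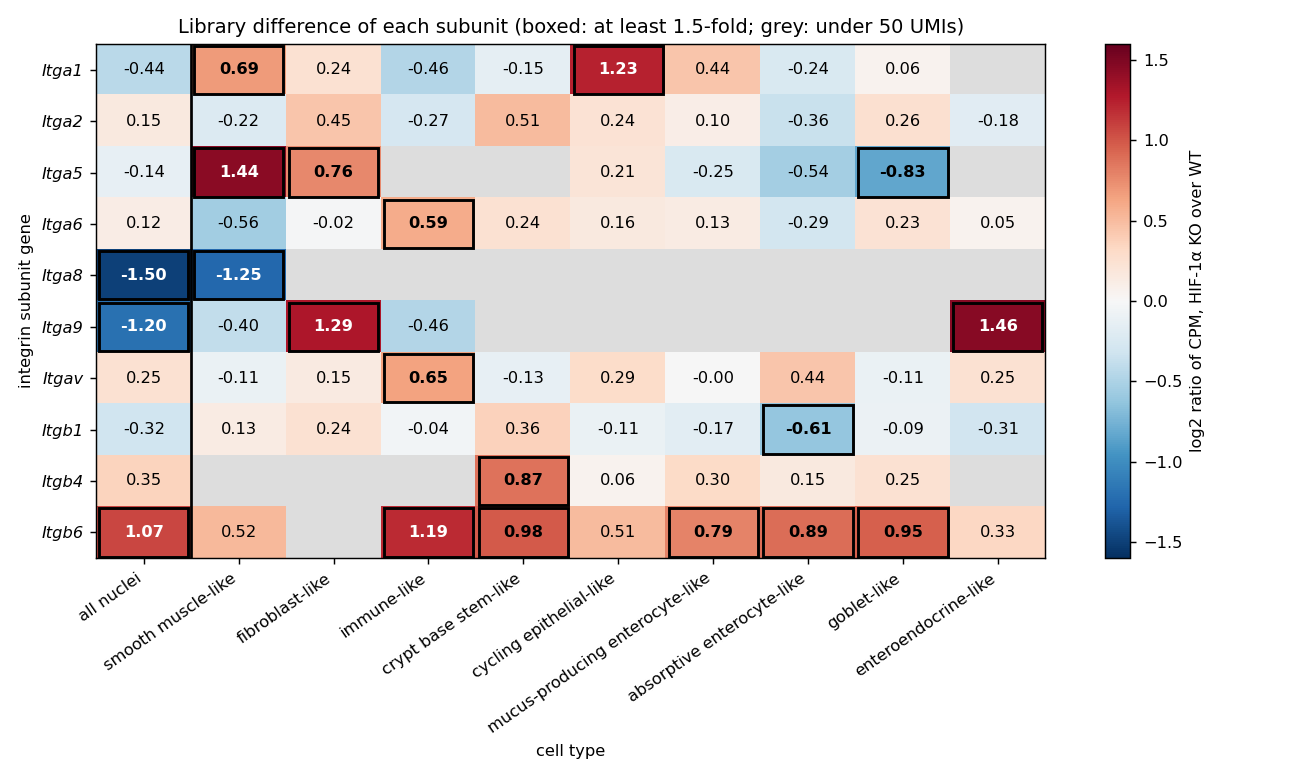
Each cell gives the log2 ratio of CPM, HIF-1α KO over WT, for a subunit (y axis) in a cell type (x axis), coloured from blue (lower) to red (higher), with boxes around differences of at least 1.5-fold and grey cells under 50 UMIs. The row of Itgb6 holds no value below 0, and Itga5 is higher in smooth muscle-like and fibroblast-like nuclei (1.44 and 0.76) and lower in goblet-like nuclei (−0.83).

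Itgb6 (ENSMUSG00000026971, chromosome 2, 60598292 to 60722643 of GRCm38, minus strand) encodes the β6 chain, which pairs with αv alone and is known from epithelia, where it is induced by injury. In absorptive enterocyte-like nuclei it was at 261 CPM in WT (interval 240 to 283, 577 UMIs) and 484 CPM in HIF-1α KO (466 to 502, 2885 UMIs), and the intervals were far apart. The log2 ratio was 0.89 (0.76 to 1.02). Both clusters of these nuclei showed it, with 247 and 460 CPM in cluster 4 and 274 and 507 CPM in cluster 7. A UMI of Itgb6 was found in 51.5% of the absorptive enterocyte-like nuclei in WT and 82.3% in HIF-1α KO, at median depths of 3535.5 and 5946.5 UMIs. Thinned to 1000 UMIs per nucleus, the shares were 22.1% and 33.2%. In fibroblast-like nuclei, which should lack the β6 chain, the shares were 9.61% and 15.1% at median depths of 1908 and 2209 UMIs, and 4.80% and 7.89% after thinning.

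The same direction was seen outside the absorptive lineage. Itgb6 was at 63.0 and 122 CPM in goblet-like nuclei (log2 ratio 0.95, interval 0.65 to 1.26) and at 65.2 and 113 CPM in mucus-producing enterocyte-like nuclei (0.79, interval 0.53 to 1.06, but 0.27 without integration of the libraries). In crypt base stem-like nuclei it was at 41.9 and 82.5 CPM (0.98, interval 0.31 to 1.69). Cycling epithelial-like nuclei held 53.1 and 75.4 CPM (0.51) and enteroendocrine-like nuclei 58.2 and 73.1 CPM (0.33), both within 1.5-fold. In immune-like nuclei, with 9 and 44 UMIs, Itgb6 was at 33.1 and 75.7 CPM (1.19, interval 0.14 to 2.41, but 0.53 with nuclei assigned by their own marker scores). Fibroblast-like nuclei stood at 48.8 and 63.0 CPM and smooth muscle-like nuclei at 59.2 and 85.0 CPM. The larger types outside the absorptive one thus lay between 33.1 and 65.2 CPM in WT and between 63.0 and 122 CPM in HIF-1α KO. With each nucleus weighted equally, Itgb6 was at 48.0 and 95.3 CPM in fibroblast-like and 69.9 and 97.8 CPM in smooth muscle-like nuclei. By the same weighting goblet-like nuclei were at 70.4 and 121 CPM and crypt base stem-like nuclei at 52.7 and 86.2 CPM. From summed UMIs, the log2 ratio was 0.37 in fibroblast-like nuclei (27 and 22 UMIs, too few to compare). It was 0.52 in smooth muscle-like nuclei (39 and 40 UMIs). The intervals of these ratios reached down to −0.51 and −0.15, so a rise there cannot be told from counting error. Among the larger types outside the epithelium, only immune-like nuclei were counted past 1.5-fold. Whether the rise was particular to the epithelial types was not tested. The 10 absorptive enterocyte markers, each with a UMI in both libraries, summed to 976 and 1432 CPM in immune-like nuclei, and Muc2, the goblet mucin, was at 482 and 998 CPM there. The part of this free RNA in the levels of Itgb6 outside the absorptive type was not tested.

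Of the 104 CPM by which Itgb6 was higher over all nuclei, absorptive enterocyte-like nuclei carried 78.7 CPM. A difference of level within them made 46.8 CPM and their larger share of the UMIs 31.9 CPM. Goblet-like nuclei added 16.5 CPM and mucus-producing enterocyte-like nuclei 15.1 CPM, mostly by level (9.84 and 9.80 CPM), while the unnamed cluster 1, smaller in HIF-1α KO, took away 7.41 CPM.

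Itgav (ENSMUSG00000027087, chromosome 2, 83724397 to 83806916, plus strand) encodes the αv chain, the partner of β6 and of other β chains that bind RGD motifs. Its level was highest in absorptive enterocyte-like nuclei, at 209 CPM in WT (190 to 229) and 284 CPM in HIF-1α KO (270 to 298). These intervals did not overlap, yet the log2 ratio of 0.44 lay within 1.5-fold. Fibroblast-like nuclei came next with 204 and 226 CPM, and their intervals overlapped those of the absorptive type in both libraries. Smooth muscle-like nuclei held 153 and 142 CPM and goblet-like nuclei 113 and 105 CPM. Mucus-producing enterocyte-like nuclei, at 68.2 and 68.0 CPM, hardly differed between the libraries (log2 ratio interval −0.28 to 0.27). Cycling epithelial-like nuclei held 57.2 and 69.9 CPM, crypt base stem-like nuclei 80.2 and 73.1 CPM and enteroendocrine-like nuclei 66.8 and 79.4 CPM. A single HIF-1α KO nucleus held 26 of the 140 UMIs in the cycling type. With each nucleus weighted equally, Itgav was at 67.1 and 63.4 CPM in that type, the other direction. In immune-like nuclei Itgav was at 95.7 and 150 CPM (26 and 87 UMIs), with a log2 ratio of 0.65 whose interval reached −0.00 and which was 0.36 after thinning. The absorptive type carried 36.8 CPM of a difference of 21.7 CPM over all nuclei, 15.7 CPM by level and 21.1 CPM by share, and other types took the excess away. Gm13684, a gene antisense to Itgav, had 40 and 197 UMIs.

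**Figure D3:**
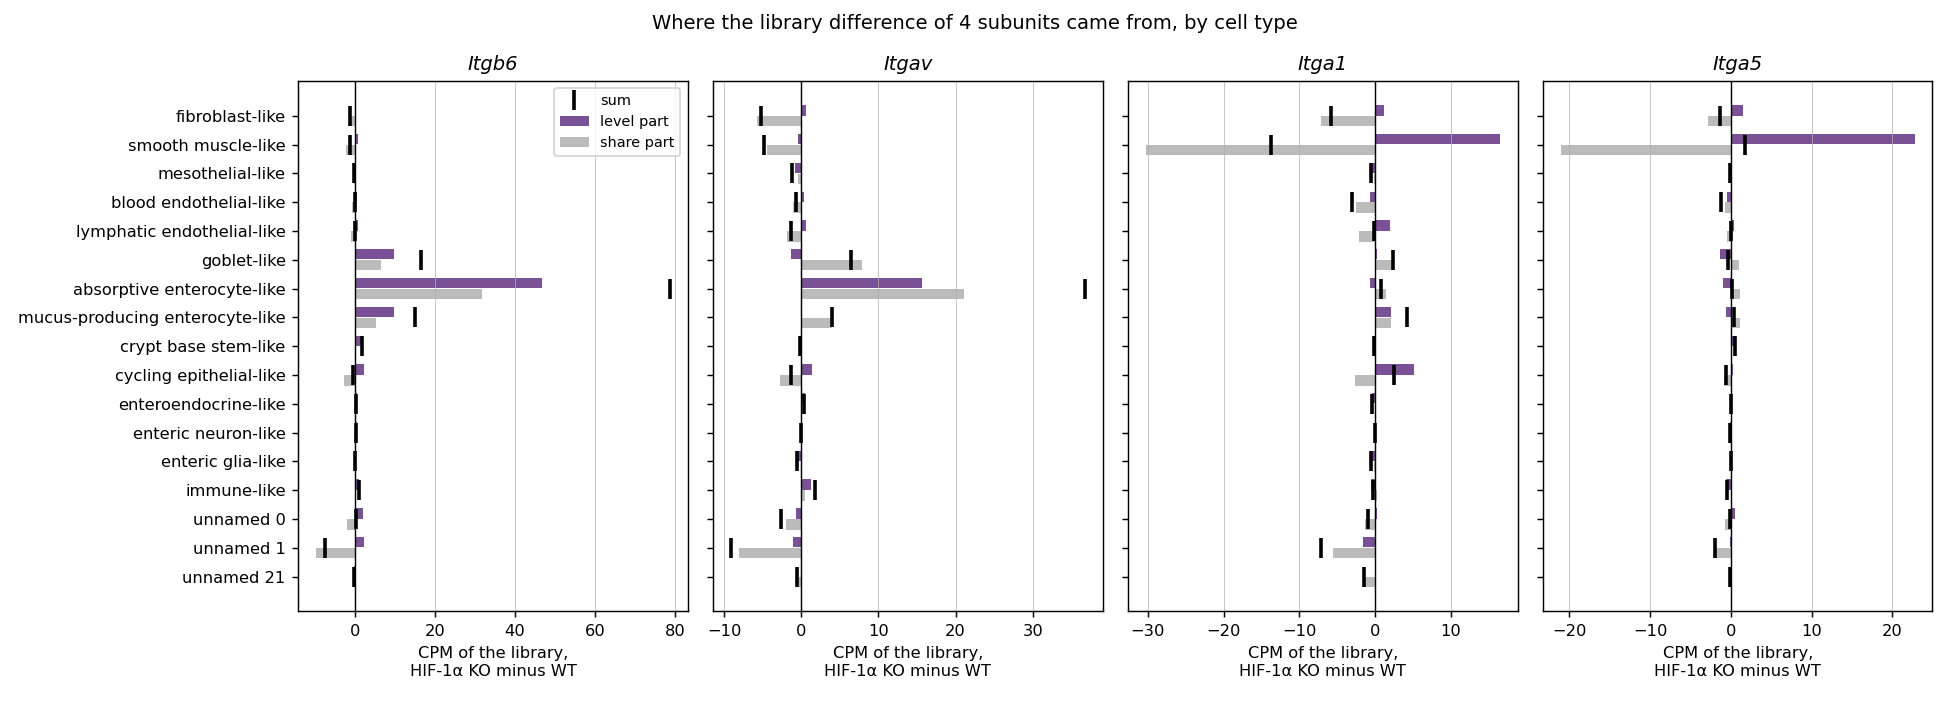
For Itgb6, Itgav, Itga1 and Itga5, the x axis gives the contribution of each cell type (y axis) to the difference between the libraries, in CPM of the library, HIF-1α KO minus WT, split into a level part (purple) and a share part (grey), with a black mark for their sum. Itgb6 and Itgav gain most in absorptive enterocyte-like nuclei (78.7 and 36.8 CPM), whereas in smooth muscle-like nuclei the level and share parts of Itga1 and Itga5 point in opposite directions.

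Itga1 (ENSMUSG00000042284, chromosome 13, 114953096 to 115101964, minus strand) encodes the α1 chain of a collagen receptor that binds the basement membrane collagen around muscle cells. Smooth muscle-like nuclei held the highest level in both libraries, 780 CPM in WT (714 to 850, 514 UMIs) and 1253 CPM in HIF-1α KO (590 UMIs). The intervals were apart, and the log2 ratio was 0.69 (0.51 to 0.86). Some of the larger nuclei weighed heavily: 5 nuclei held 23.1% of the HIF-1α KO UMIs and 13.4% of those in WT, and with each nucleus weighted equally the levels were 684 and 969 CPM (log2 ratio 0.50), under the 1.5-fold limit. After thinning the log2 ratio was 0.39. Fibroblast-like nuclei held 242 and 286 CPM (0.24, interval −0.14 to 0.63) and immune-like nuclei 73.6 and 53.3 CPM.

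In the epithelium Itga1 was low, at 15.3 to 40.2 CPM in absorptive enterocyte-like, goblet-like, mucus-producing enterocyte-like, crypt base stem-like and enteroendocrine-like nuclei of either library. Cycling epithelial-like nuclei were the exception in HIF-1α KO, with 84.3 CPM (72.1 to 98.1) against 36.0 CPM (27.5 to 46.2) in WT and a log2 ratio of 1.23 (0.80 to 1.68). A single HIF-1α KO nucleus held 21 of these 169 UMIs, and without the nucleus with the most UMIs in each library the log2 ratio was 1.15. After thinning it was 0.31, under the 1.5-fold limit. The larger cycling cluster 6 held 33.8 and 92.0 CPM and cluster 15 held 47.2 and 60.2 CPM. Over all nuclei Itga1 was 24.0 CPM lower in HIF-1α KO, as the sum of a level part of 23.1 CPM and a share part of −47.1 CPM. Smooth muscle-like nuclei alone gave 16.5 CPM by level and −30.3 CPM by share. Pelo, which lies within Itga1 on the same strand, had 81 and 130 UMIs.

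Itga2 (ENSMUSG00000015533, chromosome 13, 114833081 to 114932100, minus strand) encodes the α2 chain, the collagen receptor of epithelia and platelets, and is the neighbour of Itga1 on the chromosome. Its levels were higher in most epithelial types than in the stroma. Cycling epithelial-like nuclei held 196 and 231 CPM and goblet-like nuclei 194 and 231 CPM, with overlapping intervals in each library. A single HIF-1α KO nucleus held 49 of the 462 UMIs in the cycling type. With each nucleus weighted equally, Itga2 was at 190 and 208 CPM there and at 202 and 242 CPM in goblet-like nuclei. Mucus-producing enterocyte-like nuclei followed at 156 and 168 CPM and crypt base stem-like nuclei at 145 and 206 CPM (log2 ratio 0.51, interval 0.14 to 0.89). Absorptive enterocyte-like nuclei, at 95.3 and 74.4 CPM (−0.36, interval −0.60 to −0.11), were lower in HIF-1α KO. Smooth muscle-like nuclei were lowest in both libraries at 66.7 and 57.4 CPM, with intervals that overlapped those of the next types. No type passed 1.5-fold, and the gain of 15.5 CPM over all nuclei was the sum of gains in goblet-like (21.6 CPM, of which 15.3 CPM was share) and mucus-producing enterocyte-like nuclei (11.9 CPM) and of losses, chiefly in the unnamed cluster 1 (−10.9 CPM). Enteroendocrine-like nuclei held 106 and 93.2 CPM, immune-like nuclei 81.0 and 67.1 CPM and fibroblast-like nuclei 77.6 and 106 CPM.

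Itga5 (ENSMUSG00000000555, chromosome 15, 103344286 to 103366763, minus strand) encodes the α5 chain of the classical fibronectin receptor. Of all 68 combinations compared, its smooth muscle-like value had the largest difference after that of Itga9 in enteroendocrine-like nuclei. Itga5 was at 381 CPM in WT (335 to 431, 251 UMIs) and 1035 CPM in HIF-1α KO (487 UMIs), with a log2 ratio of 1.44 (1.22 to 1.67). The HIF-1α KO library held more UMIs of the gene in 129 nuclei than WT in 274. A UMI was found in 43.1% and 52.7% of these nuclei, or 27.4% and 37.0% after thinning, against 5.32% and 5.04% of goblet-like nuclei (medians of 1961.5 and 2397 UMIs in smooth muscle-like and 2511.5 and 4536 in goblet-like nuclei). With each nucleus weighted equally the log2 ratio was 1.06, and after thinning 1.02, so the direction held and the size was smaller. In fibroblast-like nuclei Itga5 was at 77.6 and 132 CPM (0.76, interval 0.13 to 1.40, 43 and 46 UMIs), though only 0.37 at a clustering resolution of 2.

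The smooth muscle markers moved with it. Summed over all 12 markers, each with a UMI in both libraries, they stood at 16163 and 24219 CPM in smooth muscle-like nuclei and at 2420 and 2724 CPM in fibroblast-like nuclei. The 11 goblet markers stood at 1685 and 2598 CPM in smooth muscle-like nuclei. Their part in the difference of Itga5 or Itga1 was not tested. In the epithelium the level of Itga5 was low, at 9.99 to 30.9 CPM, and the direction was mixed. Goblet-like nuclei held 17.8 and 9.99 CPM (31 and 48 UMIs, log2 ratio −0.83, interval −1.51 to −0.13, but −0.53 without integration and −2.43 after thinning) and absorptive enterocyte-like nuclei 14.9 and 10.2 CPM (−0.54). Mucus-producing enterocyte-like nuclei held 20.1 and 16.9 CPM, cycling epithelial-like nuclei 19.5 and 22.5 CPM (0.21) and enteroendocrine-like nuclei 15.1 CPM in both libraries, the last from 7 and 12 UMIs. Crypt base stem-like nuclei held 20.9 and 30.9 CPM (12 and 33 UMIs) and immune-like nuclei 47.9 and 20.7 CPM (13 and 12 UMIs), both too few to compare. Myh11 was lower in all epithelial types, for instance at 45.2 and 29.1 CPM in goblet-like and 49.2 and 24.5 CPM in absorptive enterocyte-like nuclei. Whether the low epithelial level of Itga5 is expression or free RNA was not tested. Over all nuclei Itga5 differed by only −3.76 CPM, since a level part of 21.6 CPM met a share part of −25.4 CPM. Smooth muscle-like nuclei made 22.8 CPM of the first and −21.1 CPM of the second, and held 45.1% of the Itga5 UMIs in WT and 54.1% in HIF-1α KO.

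Itga6 (ENSMUSG00000027111, chromosome 2, 71745616 to 71858416, plus strand) encodes the α6 chain of the laminin receptors, a marker of basal and stem compartments in many epithelia. Crypt base stem-like nuclei held 591 CPM in WT and 700 CPM in HIF-1α KO and cycling epithelial-like nuclei 581 and 649 CPM, with overlapping intervals. Mucus-producing enterocyte-like nuclei held 496 and 544 CPM, absorptive enterocyte-like nuclei 415 and 338 CPM, goblet-like nuclei 329 and 385 CPM and enteroendocrine-like nuclei 319 and 330 CPM. The crypt base stem-like and cycling types led in both libraries, while absorptive enterocyte-like and goblet-like nuclei changed places, with intervals apart in each library. The direction of the difference was not the same in all types: the log2 ratio was 0.24 (0.06 to 0.43) in crypt base stem-like and −0.29 (−0.41 to −0.18) in absorptive enterocyte-like nuclei. Smooth muscle-like nuclei held 206 and 140 CPM (−0.56, just within 1.5-fold) and fibroblast-like nuclei 206 and 203 CPM. Immune-like nuclei, at 180 and 272 CPM, were the type past 1.5-fold (0.59, interval 0.12 to 1.09), with 199 and 250, 157 and 310, and 150 and 291 CPM in their clusters 14, 16 and 19. With nuclei assigned by their own marker scores the log2 ratio was 0.24, under the limit.

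Itgb4 (ENSMUSG00000020758, chromosome 11, 115974709 to 116008412, plus strand) encodes the β4 chain, which pairs with α6 only and links it to keratin through plectin. Absorptive enterocyte-like nuclei held 118 and 132 CPM and mucus-producing enterocyte-like nuclei 102 and 125 CPM, with overlapping intervals. The lowest epithelial level in WT after that of enteroendocrine-like nuclei (32.3 CPM, 15 UMIs) was that of crypt base stem-like nuclei, 55.8 CPM (38.2 to 78.8), which stood at 102 CPM (83.9 to 123) in HIF-1α KO with a log2 ratio of 0.87 (0.29 to 1.49). It was 0.46 with the subunits kept among the variable features, under the limit. Fibroblast-like nuclei held 13 and 11 UMIs, smooth muscle-like nuclei 22 and 24, immune-like nuclei 5 and 26 and enteroendocrine-like nuclei 15 and 16, all too few to compare. The highest levels of Itgb4 and of its partner Itga6 were thus in different epithelial types. Goblet-like nuclei held 83.0 and 98.4 CPM and cycling epithelial-like nuclei 87.3 and 90.8 CPM. The gain of 23.1 CPM over all nuclei was the sum of gains in absorptive enterocyte-like (13.5 CPM), mucus-producing enterocyte-like (11.6 CPM) and goblet-like nuclei (9.10 CPM) and of losses such as −4.61 CPM in the unnamed cluster 1 and −3.45 CPM in cycling epithelial-like nuclei.

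Itga8 (ENSMUSG00000026768, chromosome 2, 12106632 to 12301922, minus strand) encodes the α8 chain, a receptor for nephronectin known from smooth muscle and mesenchyme, and was the scarcest, with 100 and 63 UMIs over all nuclei. Smooth muscle-like nuclei held 60.7 CPM in WT (43.3 to 82.6, 40 UMIs) and 25.5 CPM in HIF-1α KO (13.2 to 44.5, 12 UMIs). The log2 ratio was −1.25 (−2.32 to −0.29), and the Poisson intervals of the levels overlapped slightly. After thinning it was −3.21, so the size is poorly fixed. In HIF-1α KO the 12 UMIs came from 9 nuclei. Fibroblast-like nuclei held 37.9 and 25.8 CPM (21 and 9 UMIs) and were not compared. Epithelial and immune-like levels were at most 5.14 CPM. Crypt base stem-like nuclei of HIF-1α KO held 0 UMIs, where a limit of 3 UMIs allows up to 2.81 CPM and the exact interval ends at 3.46 CPM.

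Itga9 (ENSMUSG00000039115, chromosome 9, 118606690 to 118901003, plus strand) encodes the α9 chain, a receptor for tenascin and related ligands needed for lymphatic valves. Among the 9 larger types, smooth muscle-like nuclei held the highest level, 350 CPM in WT (307 to 399) and 266 CPM in HIF-1α KO (221 to 316), with a log2 ratio of −0.40 (−0.73 to −0.08). Fibroblast-like nuclei went the other way, from 83.1 CPM (60.8 to 111, 46 UMIs) to 203 CPM (159 to 257, 71 UMIs), with a log2 ratio of 1.29 (0.74 to 1.86). In fibroblast-like nuclei 17.0% and 30.3% held a UMI. The 12 fibroblast markers, all present, summed to 3525 and 4234 CPM there. Enteroendocrine-like nuclei held 21.5 and 59.2 CPM (10 and 47 UMIs, 1.46, interval 0.46 to 2.61) and immune-like nuclei 107 and 77.4 CPM (−0.46). The other epithelial types held 2.18 to 15.7 CPM from 4 to 19 UMIs and were not compared. The difference over all nuclei, −23.1 CPM, lay chiefly in smooth muscle-like nuclei (−12.1 CPM, of which −9.17 CPM was share) and in lymphatic endothelial-like nuclei (−4.62 CPM). In the latter, 76 and 40 nuclei, Itga9 was at 423 and 355 CPM with overlapping intervals, which also overlapped those of smooth muscle-like nuclei in each library.

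Itgb1 (ENSMUSG00000025809, chromosome 8, 128685654 to 128733200, plus strand) encodes the β1 chain, the shared partner of most α chains listed here. Smooth muscle-like nuclei held 497 and 544 CPM (445 to 554 and 479 to 615) and fibroblast-like nuclei 282 and 332 CPM, and neither differed beyond counting error (log2 ratios of 0.13, interval −0.11 to 0.37, and 0.24, interval −0.12 to 0.59). Summed over nuclei, the partner chain was at a similar level in smooth muscle-like nuclei of both libraries while Itga5 was not. With each nucleus weighted equally, Itgb1 was lower in HIF-1α KO there, at 507 CPM in WT and 419 CPM in HIF-1α KO. In these nuclei 5 held 30.9% of the Itgb1 UMIs of HIF-1α KO and 5 held 10.1% of those of WT. Immune-like nuclei held 136 and 133 CPM, and epithelial levels ran from 101 to 181 CPM. Absorptive enterocyte-like nuclei held 155 CPM in WT (139 to 173, 344 UMIs) and 101 CPM in HIF-1α KO (93.5 to 110, 605 UMIs), the log2 ratio being −0.61 (−0.81 to −0.42), or −0.46 with DESeq2 size factors, which is under the limit. These nuclei were thus higher for Itgb6 and Itgav and lower for Itgb1. Over all nuclei Itgb1 was lower by 35.7 CPM, of which smooth muscle-like nuclei carried −13.9 CPM (level 1.61 CPM, share −15.5 CPM) and the unnamed cluster 1 −11.2 CPM.

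**Figure D4:**
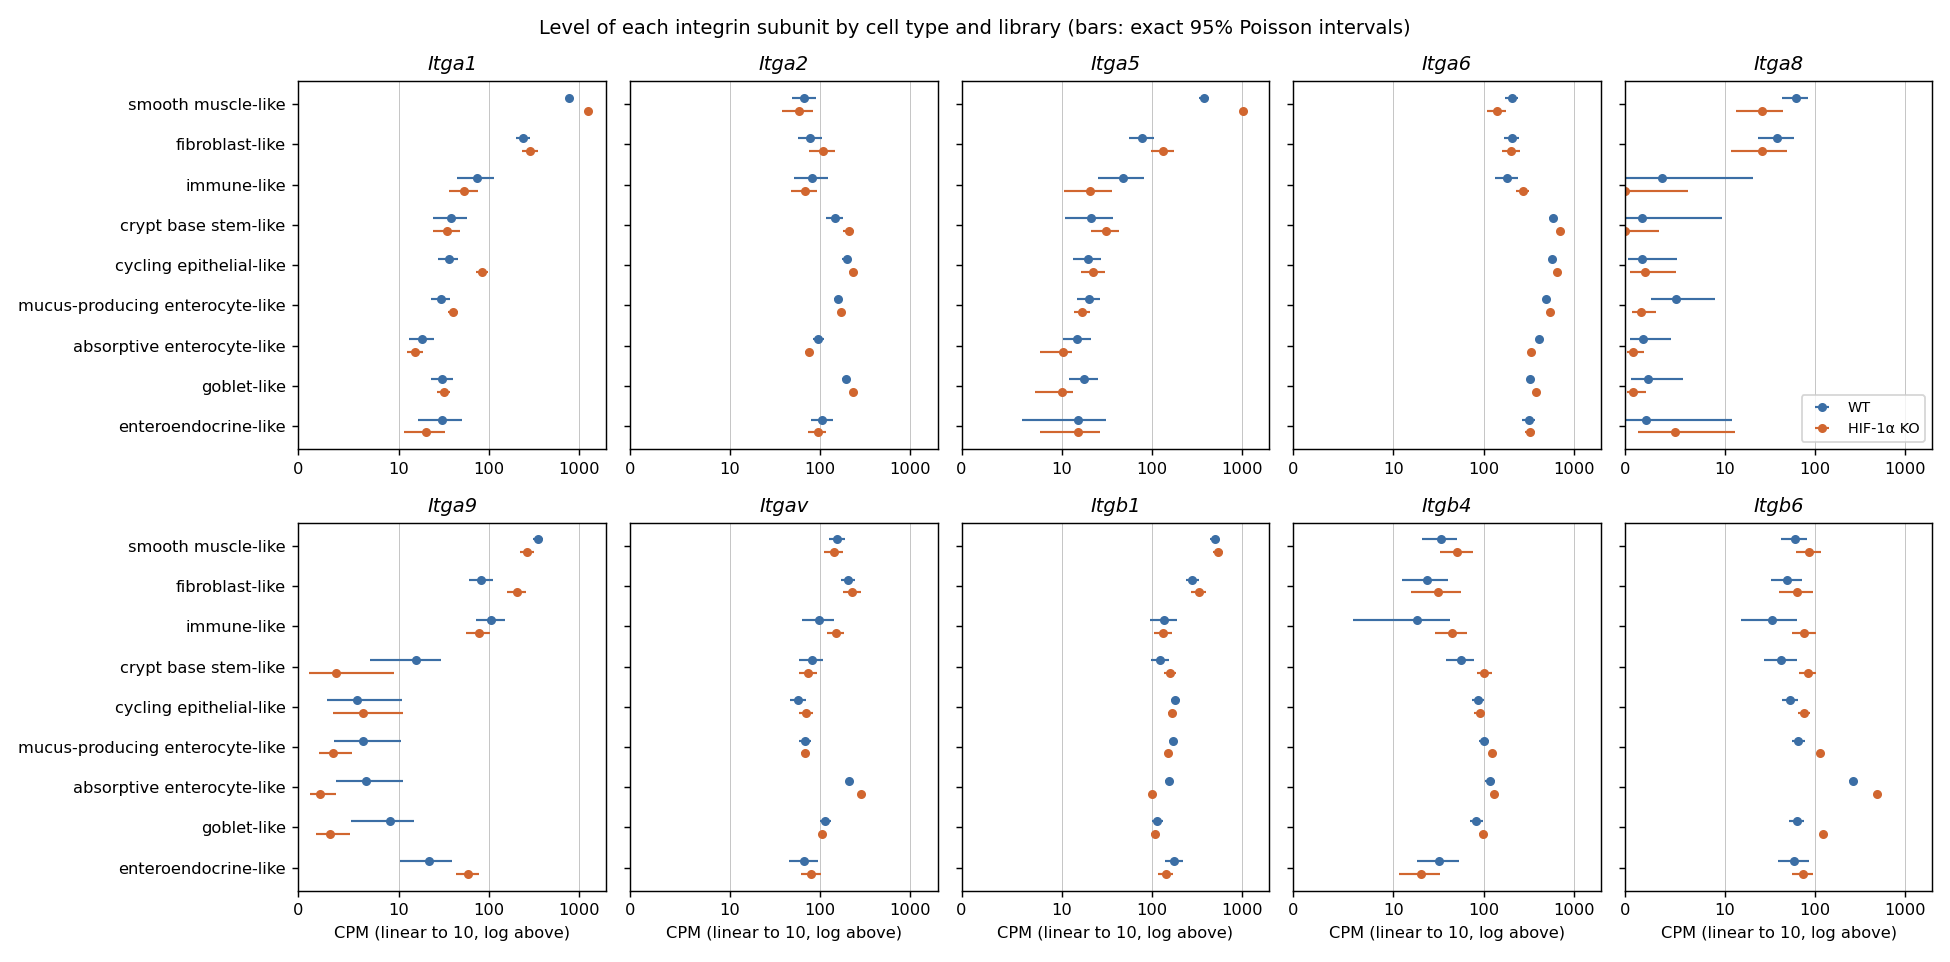
Each panel gives the level of 1 subunit on the x axis, in CPM on a scale that is linear up to 10 and logarithmic above, for 9 cell types (y axis) in WT (blue) and HIF-1α KO (orange), with bars for exact 95% Poisson intervals. Itga1, Itga5, Itga9 and Itgb1 are highest in smooth muscle-like nuclei, Itgav and Itgb6 in absorptive enterocyte-like nuclei, and Itga6 in the crypt base stem-like and cycling epithelial-like types.

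The remaining genes of the integrin system were read from lists of other subunits, plaque proteins, hemidesmosome parts and ligands. Of 17 plaque proteins compared in smooth muscle-like nuclei, 3 were higher and 1 lower (11.8% and 7.89% of all genes there), with a median log2 ratio of 0.06 over the list and 0.03 over all genes. Vcl (vinculin, which ties talin to actin) was at 663 and 1168 CPM, Fermt2 (the kindlin of mesenchyme, an activator of β1 integrins) at 273 and 482 CPM and Lims2 (a partner of integrin-linked kinase) at 137 and 268 CPM. The lower gene was Tln2, a talin, at 167 and 63.7 CPM. Tln2 was lower in all 9 types, with log2 ratios from −1.75 to −0.70, so its difference was not bound to a cell type. In fibroblast-like nuclei 1 of 12 was higher, Vcl at 343 and 516 CPM, and 1 lower, Tln2 at 195 and 120 CPM (10.8% and 6.86% of all genes). In absorptive enterocyte-like nuclei 0 of 16 were higher and 5 lower (10.3% and 15% of all genes): Tln2 (87.1 and 34.4 CPM), the parvin Parva (102 and 63.9 CPM), the actinin Actn1 (83.5 and 40.7), Tns1 (32.5 and 6.87) and the filamin Flna (45.2 and 14.1 CPM). Goblet-like nuclei had 3 of 16 lower (10.2% of all genes), which were Tln2 (156 and 70.9 CPM), Tns1 (28.6 and 8.53) and Flna (37.2 and 13.3), and mucus-producing enterocyte-like nuclei also 3 of 16 (8.79%), at 342 and 157 CPM for Tln2, 19.3 and 8.11 for Tns1 and 41.6 and 10.6 for Flna. Cycling epithelial-like nuclei had 1 of 14 higher (13.1% of all genes), Bcar1 (23.0 and 40.9 CPM), and 2 lower (7.19%), Tln2 and Flna. Enteroendocrine-like nuclei had 2 of 11 lower (6.69% of all genes), Tln2 and Actn4 (321 and 193 CPM). Crypt base stem-like nuclei had 3 of 14 higher (17.1% of all genes) and 2 lower (7.22%). The lower ones were Tln2 (255 and 136 CPM) and Flna (90.7 and 12.2 CPM). The higher ones were Tln1 (8 and 49 UMIs), Pxn (paxillin, 47.1 and 75.0 CPM) and Bcar1 (26.2 and 40.3 CPM). Myh11, the smooth muscle myosin, was lower in all epithelial types too, for instance at 54.4 and 23.8 CPM in mucus-producing enterocyte-like nuclei. The part of free RNA in the epithelial levels of Tns1, Flna and the other plaque genes was not tested.

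Among the ligands, Fn1 (fibronectin, bound by α5 and αv pairs) and Postn (periostin, bound by αv pairs) were higher in both stromal types. Fn1 was at 707 and 1170.5 CPM in smooth muscle-like and 267 and 450 CPM in fibroblast-like nuclei, and Postn at 291 and 452 CPM and at 240 and 390 CPM. The study named Fn1, Postn and Col1a1 from these same libraries, so they are no independent evidence of a direction. Smooth muscle-like nuclei had 4 of 14 ligands higher (11.8% of all genes) and 1 lower (7.89%), Lamc1 at 199 and 125 CPM, the other higher ones being Lama4 (118 and 249 CPM) and Lama3 (10 and 51 UMIs). Fibroblast-like nuclei had 2 of 14 higher (10.8%) and 1 lower (6.86%), Col1a1 at 363 and 223 CPM. The study reports Col1a1 as increased in HIF-1α KO over its whole mesenchymal compartment, shown as violin plots over nuclei. The value here is lower, but it is CPM of summed UMIs in fibroblast-like nuclei alone. Both the measure and the nuclei thus differ from those of the study. In absorptive enterocyte-like nuclei 1 of 12 was higher and 9 lower (10.3% and 15% of all genes), with a median log2 ratio of −1.47 against −0.08 over all genes. Ligands were lower likewise in goblet-like nuclei (7 of 11, against 10.2% of all genes, median −1.02) and in mucus-producing enterocyte-like nuclei (7 of 11, against 8.79%, median −1.17). Lower ligands were thus not particular to the absorptive type. Over all nuclei 18 of 22 were lower (16.5% of all genes, median −1.33). The stromal types, which gave a smaller share of the UMIs in HIF-1α KO, did not share this within them. Their medians were 0.14 in fibroblast-like and 0.01 in smooth muscle-like nuclei (0.08 and 0.03 over all genes). The part of the shares in the value over all nuclei was not tested. The higher one in absorptive enterocyte-like nuclei was Lama3, the α chain of the laminin that α6β4 binds. It was at 331 and 782 CPM there (log2 ratio 1.24, interval 1.13 to 1.35). The 9 lower ones were Lama5 (37.0 and 18.6 CPM), Fn1 (25.3 and 10.7 CPM), Col3a1 (25.7 and 6.54 CPM), Col1a1 (17.2 and 3.69 CPM), Tnc, Lamc1, Col1a2, Col4a2 and Ltbp1, all at low level. The 12 fibroblast markers summed to 63.7 and 24.3 CPM in the same nuclei, and the part of free RNA in these ligands was not tested. In goblet-like nuclei the lower ones were Fn1, Col3a1, Tgfb1, Tnc, Lamc1, Col1a2 and Lama2 (13.2 to 24.1 CPM in WT, 3.95 to 11.9 CPM in HIF-1α KO) and in mucus-producing enterocyte-like nuclei Fn1, Col3a1, Lama5, Tnc, Col1a1, Lamc1 and Col1a2 (10.7 to 22.7 CPM, then 3.79 to 10.1 CPM). Cycling epithelial-like nuclei had 2 of 4 lower (7.19% of all genes), Fn1 and Lamb3 (24.2 and 12.5 CPM). Lama3 was also higher in goblet-like (33.8 and 77.4 CPM), mucus-producing enterocyte-like (26.2 and 48.9) and crypt base stem-like nuclei (20.9 and 47.8 CPM).

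Of the other 16 integrin subunits, few held 50 UMIs in a type. Itgb5, another partner of αv, was higher in fibroblast-like nuclei (57.8 and 100 CPM, log2 ratio 0.79, interval 0.06 to 1.53), 1 of 2 compared there (10.8% of all genes). Itgb8, a further β chain of αv that binds latent TGF-β, was lower in absorptive enterocyte-like nuclei (19.4 and 7.88 CPM, −1.30), 1 of 4 compared (15% of all genes). Itga3, a laminin receptor chain of epithelia, was higher in enteroendocrine-like nuclei (45.2 and 70.6 CPM, interval of the log2 ratio −0.11 to 1.44), 1 of 1 compared (10.5% of all genes). Itga7, a laminin receptor chain of muscle, was lower in mucus-producing enterocyte-like nuclei (15.9 and 7.75 CPM), 1 of 4 compared (8.79% of all genes). In smooth muscle-like nuclei none of 5 compared passed 1.5-fold, where 11.8% of all genes were higher and 7.89% lower. Of the hemidesmosome genes, Dst was higher in crypt base stem-like nuclei (185 and 290 CPM, 0.65, interval 0.32 to 0.98), 1 of 2 compared there (17.1% of all genes). Plec was higher in fibroblast-like nuclei (126 and 203 CPM), also 1 of 2 compared (10.8% of all genes). Cd151, a tetraspanin bound to α6 integrins, was lower in absorptive enterocyte-like nuclei (14.0 and 9.05 CPM), 1 of 3 compared (15% of all genes).

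The genes whose level over the 9 types and both libraries was most like that of each subunit were taken from 10971 genes with at least 200 UMIs, by Pearson's r of log2(CPM + 10) over 18 points, which share libraries and depth. Itga5 was most like Nexn (0.98), Jph2 and Csrp1, and Itga1 most like Adcy5 (0.97), Aspn and Nexn. For Itgb1 they were Adcy5 (0.96), Nexn and Dmd, the last a smooth muscle marker, for Itga8 Podn (0.99), Pdgfd and Speg, and for Itga9 Slco3a1 (0.96), Ssbp2 and Anxa6. Among the subunits whose highest level was in an epithelial type, Itga2 was most like Fermt1 (0.95), the kindlin of epithelia, then Scamp1 and Suclg2. Itgb6 was most like Ptprh (0.96), Efna1 and Clic5, Itgav like Cd55 (0.92), Gcnt2 and March3, Itga6 like Usp43 (0.96), Mfsd13a and Map3k21, and Itgb4 like Tfcp2l1 (0.93), Magi3 and Parm1.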

How the data were processed

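The authors deposited UMI counts per gene and nucleus for each library, made with Cell Ranger 7.0.1 on mm10 according to the submitters' processing notes. Whether intronic reads were counted is not given in the sources used here. Nuclei were filtered (400 to 5000 genes, at most 10% mt- UMIs), the only step that removes doublets, and the libraries were integrated and clustered with Seurat 5.3.0 in R 4.3.3 (Matrix 1.6.5; 30 principal components, resolution 1, seed 1). The 6 subunits among the 2000 variable features were left out, so 1994 were used. A cluster took a cell type name where at least 3 of its markers had a log2 enrichment of at least 1 and were found in at least 10% of its nuclei, unless another type had more markers among the 10 leading genes. These naming limits, with a prior of 10 CPM, were set after the data were seen.

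UMIs were summed per library and type and divided by the summed UMIs of those nuclei (CPM), with Python 3.11.15, numpy 2.4.6, pandas 2.3.3, scipy 1.17.1 and matplotlib 3.10.9. CPM has exact Poisson intervals and ratios exact conditional intervals, at 95%. Ratios at equal composition have approximate 95% intervals instead, from a normal approximation with the variance of Poisson counts (delta method). A difference was counted at 1.5-fold with at least 50 UMIs in both libraries together. For this 3′ assay, levels are compared between types and libraries and not between genes, since they were not scaled by length. Contributions split each library difference into a level and a share part that sum to it. On simulated counts the 1.5-fold rule called 97% of 2-fold higher and 77% of 2-fold lower genes in smooth muscle-like nuclei (4270 genes), and 95% and 84% in absorptive enterocyte-like nuclei (9245 genes). Of unchanged genes, 91.55% and 94.65% were left within. The simulated counts held counting error only, without spread between nuclei, animals or preparations and without free RNA. These rates therefore do not measure how reliable the differences in the data are. edgeR 4.0.16 and DESeq2 1.42.0 gave scaling factors for alternatives only. The subunits and lists were chosen with earlier results of these data known. All 10 subunits are described in each type of at least 50 nuclei per library; of the lists, genes past 1.5-fold in stromal or epithelial types, at most 6 per list and type by UMIs, with further ligands named after their values were seen where more passed; and the 3 most similar genes per subunit. Positions are from the annotation of GRCm38 and promoters from RefSeq. Alternatives are given in the closing section.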

Additional observations from a re-analysis of the deposited data

Results flagged for a closer look

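Itga5, the fibronectin receptor chain, pointed in opposite directions in cell types of the same libraries: its log2 ratio of HIF-1α KO over WT was 0.763 in fibroblast-like nuclei and 1.442 in smooth muscle-like nuclei, but −0.83 in goblet-like nuclei. The difference between the cell types was not tested, since each genotype is 1 library. The goblet-like value rests on 31 and 48 UMIs and was −0.53 without integration, the fibroblast-like value was 0.37 at a clustering resolution of 2, and both are then under 1.5-fold. The other epithelial types did not share one direction: Itga5 was at 0.21 in cycling epithelial-like and −0.54 in absorptive enterocyte-like nuclei.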

How the results depend on the processing

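None of the 17 differences of at least 1.5-fold changed direction under any alternative run. Those of Itga5 and Itga8 in smooth muscle-like, of Itga9 in fibroblast-like and enteroendocrine-like and of Itgb6 in absorptive enterocyte-like, goblet-like and crypt base stem-like nuclei stayed past 1.5-fold under each alternative that gave a value, and the others fell short under at least 1. Thinning every nucleus to 1000 UMIs, a single draw that left out 63 HIF-1α KO nuclei, moved the log2 ratio over all nuclei to −0.65 for Itga1, 0.25 for Itga2, 0.23 for Itga6, −0.80 for Itga9 and −0.19 for Itgb1, and at equal composition to 0.028 for Itga1, 0.38 for Itga5, 0.21 for Itga6 and 0.080 for Itgav. It left 9 combinations higher and 1 lower. With each nucleus weighted equally, the values over all nuclei were 0.18 for Itga6, −0.87 for Itga9, 0.084 for Itgav and 0.91 for Itgb6. Without integration of the libraries, those at equal composition were 0.61 for Itga1, 0.25 for Itga2, −0.21 for Itgb1, 0.72 for Itgb6 and 0.12 for Itga9, which thereby changed sign, and 9 combinations were higher. A 2-fold limit left 5 higher and 1 lower, no UMI minimum gave 14 lower, and leaving out the nucleus with the most UMIs gave 5 lower. This last setting, equal weighting within types, clusters in place of types and leaving out the unnamed cluster 1 were chosen after seeing the data. The other alternatives (no filter on nuclei, TMM and DESeq2 scaling, resolutions of 0.5 and 2, assignment of single nuclei, subunits kept among the variable features, unnamed clusters left out) moved no value over all nuclei or at equal composition and no count beyond its limit. TMM and DESeq2 factors shifted all log2 ratios of absorptive enterocyte-like nuclei by 0.14 and 0.15, so that Itgb6 stood at 1.03 with TMM there, and TMM those of fibroblast-like nuclei by −0.11. Crypt base stem-like nuclei had no cluster at resolution 0.5 or without integration, and Itgb6 in mucus-producing enterocyte-like nuclei was at 0.27 without integration. No paired analysis was possible because each genotype is 1 library. Combinations with under 50 UMIs, among them Itga8 in 8 of the 9 types, were left out of the counts by rule, although for some the interval of the ratio excluded 0, as for Itga9 in goblet-like nuclei (−1.55, interval −2.67 to −0.44).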

Other observations

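In cell types with under 50 nuclei in a library, some subunits had high levels. Lymphatic endothelial-like nuclei held Itga1 at 108 CPM in WT and 299 CPM in HIF-1α KO (22 and 37 UMIs). Blood endothelial-like nuclei, 79 and 33, held Itga6 at 440 and 451 CPM (80 and 54 UMIs) and Itga1 at 313 and 251 CPM. Enteric glia-like nuclei, 12 and 9, held Itga1 at 490 and 301 CPM (15 and 14 UMIs), and the unnamed cluster 21 held it at 459 and 470 CPM.

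Itga4, the α4 chain of leukocyte integrins and no member of the 10, was higher in immune-like nuclei, at 147 and 286 CPM (40 and 166 UMIs, log2 ratio 0.96, interval 0.45 to 1.49). It was 1 of 2 other subunits compared there (18.7% of all genes were higher). The immune-like clusters 14, 16 and 19 held 93, 49 and 11 nuclei in WT and 154, 72 and 51 in HIF-1α KO. The part of this unequal mix in the difference of Itga4 was not tested. Itgae, the chain of lymphocytes within the epithelium, was at 2.64 and 5.97 CPM over all nuclei (35 and 141 UMIs).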
